A study of Mus musculus with 6 samples.

Results

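Carboxylesterases are serine hydrolases of the endoplasmic reticulum that split esters, amides and thioesters, among them many ester drugs and prodrugs, triacylglycerols and cholesteryl esters. In mice the family is expanded into runs of neighboring genes, of which the *Ces1* genes are best known from liver and the *Ces2* genes from intestine and liver, where they meet swallowed esters first. The 10 genes described here, *Ces1c*, *Ces1d*, *Ces1e*, *Ces1f* and *Ces1g* of the *Ces1* group and *Ces2a*, *Ces2b*, *Ces2c*, *Ces2e* and *Ces2g* of the *Ces2* group, were taken by gene name from the 18049 genes of the colonic crypt RNA-Seq table. They were chosen by family and by being listed in this table, at a time when the differences between these same 6 mice were already known, so their counts and p values are given as a description of the genes and not as independent evidence.

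The mice were a model of Lynch syndrome on a C57BL/6J background fed a Western-style diet. Both groups carried a Villin-Cre transgene and a knocked-in humanized *TgfβRII* with a poly(A) repeat. Villin-Cre acts in the intestinal epithelium, so other cells carried along with the crypts are not recombined. GSK503, an inhibitor of the histone methyltransferase EZH2, was given to 3 mice at 200 μg/kg body weight by tail vein injection in PBS, and 3 control mice received 20% captisol in PBS, with 1 total RNA library per mouse. The labels give neither the age nor the sex of single mice.

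A value is an estimated read count scaled by the authors with TMM, a method that corrects library size for differences in composition, so that values can be compared between libraries. The libraries held an estimated 108162848 to 135085027 counts each, and 3 counts corresponded to a value between 0.0228 and 0.0271. Expression of X- and Y-linked genes separated the groups: *Xist*, transcribed from the inactive X chromosome, lay between 0.419 and 0.936 in controls and between 825 and 1236 after GSK503, and *Uty*, a Y-linked gene, lay between 42.5 and 53.7 against 0.670 to 1.08. Every difference below therefore follows the sex-linked genes as well as the treatment, and the 2 cannot be told apart. Captisol, described for the control injections only, also differs between the groups and cannot be told apart from either. The 3 epithelial markers *Krt8*, *Epcam* and *Cldn7* summed to between 6736 and 7748 in controls and between 7254 and 8512 in treated mice. Summed goblet cell markers lay between 10845 and 19180 in controls and between 33294 and 51613 in treated mice, and 4 of the 8 genes rose at an adjusted p below 0.05, against 0.498% of all genes tested. Most of this sum was *Clca1* and *Fcgbp*, with treated means 4.92-fold and 2.48-fold those of controls. *Atoh1*, the least changed of the 8, was at 1.37-fold. In bulk RNA, fewer cells of a type and less RNA per cell cannot be told apart. The treated mice differed among themselves in stromal and B cell markers. Their T cell marker sums were closer together, at 9.72, 11.8 and 12.7 in treated mice 1 to 3, against 10.4 to 17.3 in the controls. The smooth muscle marker sum was 4.52, 4.26 and 122 in treated mice 1 to 3 and 20.9 to 90.1 in the controls, so mouse 3 was above the controls and mice 1 and 2 were below them. The B cell marker sum was 3.25, 1.90 and 61.1 in treated mice 1 to 3, against 21.6 to 72.2 in the controls. Mice 1 and 2 were thus below the controls, and the sum of mouse 3 was within their range. In mouse 3, *Jchain* alone was 57.9 of this sum. *Ms4a1* at 0.0915 and *Cd79b* at 0.333 were below every control in that mouse, and *Cd79a* and *Ighm* were within the control range.

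All 10 genes lie on mouse chromosome 8 (GRCm39, GENCODE annotation). The *Ces1* genes are on the minus strand of a cluster at chr8:93746842-94106353 and the *Ces2* genes on the plus strand of a cluster at chr8:105460630-105747810, 11.4 Mb apart. Sequence upstream of the start of 4 *Ces1* genes is shown because the differences between the groups were largest in this cluster: *Ces1c* had higher values after GSK503, *Ces1d* and *Ces1g* lower values, and *Ces1b*, next to *Ces1c*, had few counts in either group. Each line gives the 250 bases that end just before the annotated start of the canonical transcript, read on the minus strand, at chr8:93806710-93806959 for *Ces1b*, chr8:93857943-93858192 for *Ces1c*, chr8:93924467-93924716 for *Ces1d* and chr8:94063954-94064203 for *Ces1g*. Capitals mark the longest run of bases shared with *Ces1c* (the first where runs tie), and in *Ces1c* the longest run shared with *Ces1b*.
Ces1b: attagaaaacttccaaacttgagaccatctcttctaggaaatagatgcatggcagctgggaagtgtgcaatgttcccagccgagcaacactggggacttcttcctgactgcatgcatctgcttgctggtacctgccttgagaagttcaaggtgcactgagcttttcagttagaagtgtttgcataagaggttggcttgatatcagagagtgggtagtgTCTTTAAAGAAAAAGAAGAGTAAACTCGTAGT
Ces1c: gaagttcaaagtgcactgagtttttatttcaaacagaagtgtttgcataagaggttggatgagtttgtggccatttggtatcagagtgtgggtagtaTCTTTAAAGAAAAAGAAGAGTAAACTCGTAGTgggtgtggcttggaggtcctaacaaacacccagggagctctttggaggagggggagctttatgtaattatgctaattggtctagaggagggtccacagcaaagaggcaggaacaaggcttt
Ces1d: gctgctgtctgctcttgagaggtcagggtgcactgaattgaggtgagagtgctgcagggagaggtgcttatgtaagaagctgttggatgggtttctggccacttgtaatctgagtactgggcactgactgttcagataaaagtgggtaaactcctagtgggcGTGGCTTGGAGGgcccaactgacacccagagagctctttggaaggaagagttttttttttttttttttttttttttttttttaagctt
Ces1g: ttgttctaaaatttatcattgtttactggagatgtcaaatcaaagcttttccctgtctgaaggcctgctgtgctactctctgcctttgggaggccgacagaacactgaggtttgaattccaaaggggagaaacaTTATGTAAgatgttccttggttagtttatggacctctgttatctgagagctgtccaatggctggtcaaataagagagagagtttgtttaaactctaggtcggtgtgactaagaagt

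*Ces1b* and *Ces1c* share a run of 32 bases, which begins 153 bases before the start of *Ces1c* and 32 bases before the start of *Ces1b*. Aligned over all 250 bases, identity with *Ces1c* was highest for *Ces1d*, at 64.8%. It was 58.8% for *Ces1b*, the same as for *Ces1g*, and between 56.0% and 59.2% for the 5 *Ces2* genes. The windows were aligned end to end, and the 32-base run lies at different distances from the *Ces1b* and *Ces1c* starts. The value for *Ces1b* therefore does not measure the likeness of stretches at unlike distances from the starts. The longest run shared with *Ces1c* was 12 bases in *Ces1d*, 9 bases in *Ces1e*, 8 bases in *Ces1g* and 7 bases in *Ces1f*. In *Ces1d* the marked run begins 88 bases before its start, and another shared run of 12 bases nearer the start is not marked. Of 5 short motifs searched on both strands in these 250-base windows, the CACCC box (CCACACCC) was in *Ces1c* alone of the 10 genes, 121 bases before the start and next to the 32-base run without overlapping it, and was in 3.35% of 15450 upstream windows of the same length. The CDX site (TTTATG) was in *Ces1c*, *Ces1e*, *Ces1g* and *Ces2g* and in 8.09% of all promoters. The nuclear receptor half-site (AGGTCA) was in *Ces1d* and *Ces2a* and in 12.3% of promoters. The TATA box (TATAAA) was in *Ces1f*, 230 bases before the start and on the other strand, and in 8.47% of promoters. The HNF1 half-site (GTTAAT) was in none of the 10 and in 5.02% of promoters. These matches describe the letters of the windows and not binding.

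Differences between the groups were tested with limma on log2(value + 0.1) over the 16670 genes that reached 0.1 in at least 3 mice, and all 10 carboxylesterases reached it. At a Benjamini-Hochberg adjusted p below 0.05, limma called 1 of the 10, *Ces1c*, against 0.642% of all genes tested, and it had higher values after GSK503, as did 0.498% of all genes. None of the 10 was called with lower values, against 0.144% of all genes. Without adjustment, 4 of 10 had a p below 0.05, against 13.3% of all genes, and all 4 were *Ces1* genes. The groups did not overlap in 1 of 10 with higher values after GSK503, against 9.84% of all genes, and in 3 of 10 with lower values, against 9.22%. The median log2FC was -0.61 over the 5 *Ces1* genes, -0.05 over the 5 *Ces2* genes and -0.01 over all genes tested. A log2FC is the difference between the group means of log2(value + 0.1) and need not match the ratio of the means.

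*Ces1c* encodes a carboxylesterase that mouse liver secretes into blood plasma, where it is a main esterase acting on injected ester prodrugs. Its value was 1.55, 1.95 and 0.637 in the 3 controls and 16.0, 26.4 and 20.0 in the 3 mice given GSK503. The lowest treated mouse was above the highest control mouse, and the treated mice were closer to each other in proportion than the controls were. The mean of *Ces1c* rose 15.0-fold, from 1.38 ± 0.675 in controls to 20.8 ± 5.22 in treated mice (SD, n = 3 per group). The log2FC was 3.91 with an SE of 0.36, a 95% confidence interval from 3.11 to 4.71, and a limma adjusted p of 0.00146. The values rested on 81 to 216 estimated counts in the control libraries and 1891 to 3310 in the treated libraries, so that neither group was near the limit of detection. Leaving out each mouse in turn gave a log2FC between 3.47 and 4.21 and kept the call in 6 of 6 fits. Without limma's intensity trend the log2FC was the same and the adjusted p was 0.0860, which ends the call.

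Because *Ces1c* is known from liver, hepatocyte markers were read beside it. Of the 8 hepatocyte markers, 5 were in the table, and their sum lay between 23.8 and 31.3 in controls and between 23.6 and 27.1 in treated mice. Most of this sum was *Tat*, with a log2FC of -0.29, while the other 4 genes had a log2FC above 0. *Alb*, which encodes albumin, lay between 0.268 and 0.696 in controls and between 0.483 and 0.956 in treated mice. None of the 5 passed the test.

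*Ces1d* encodes triacylglycerol hydrolase, which frees fatty acids from lipid droplets for lipoprotein assembly in liver. Its value was 59.5, 50.7 and 32.0 in controls and 23.1, 23.0 and 19.0 in treated mice. Control mouse 3 was the lowest of its group and still above every treated mouse. The mean was 47.4 ± 14 against 21.7 ± 2.36 (SD, n = 3), with a log2FC of -1.08 (SE 0.20, 95% confidence interval -1.53 to -0.64) and a limma adjusted p of 0.0505, just outside the threshold of 0.05. At an adjusted p below 0.1, which 1.97% of all genes passed, 2 of the 10 carboxylesterases passed, *Ces1c* with higher values and *Ces1d* with lower values, and 0.558% of all genes passed with lower values. Without control mouse 3 the log2FC was -1.34 and the limma adjusted p was 0.00485, while leaving out any other mouse left it outside 0.05.

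*Ces1g* encodes a liver and intestinal hydrolase whose loss in mice raises blood lipids. Its value was 44, 41.3 and 33.6 in controls and 27.3, 26.8 and 10.9 in treated mice. The groups did not overlap, and treated mouse 3 was far below the other 2. The log2FC was -0.97 (SE 0.30, 95% confidence interval -1.65 to -0.29), with a limma adjusted p of 0.201. Treated mouse 3 also had higher smooth muscle and B cell marker sums than treated mice 1 and 2, the B cell sum being mostly *Jchain*. The part of these sums in this value was not tested. Without treated mouse 3 the log2FC was -0.54.

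*Ces1e* encodes egasyn, which holds β-glucuronidase in the endoplasmic reticulum. Its value was 25.7, 22.6 and 18.2 in controls and 14.8, 17.4 and 11.4 in treated mice. Every treated mouse was below every control mouse, with less than 1 unit between the nearest pair. The log2FC was -0.61 (SE 0.17, 95% confidence interval -1.0 to -0.22), and the limma adjusted p was 0.164.

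*Ces1f* encodes a further triacylglycerol hydrolase of the same kind. Its value was 49.5, 64.4 and 57.4 in controls and 61.5, 49.9 and 32.3 in treated mice. The groups overlapped, and treated mouse 3 was again the lowest. The log2FC was -0.29 (SE 0.20, 95% confidence interval -0.75 to 0.16, limma adjusted p = 0.573), and it was -0.04 without treated mouse 3.

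**Figure D1:**
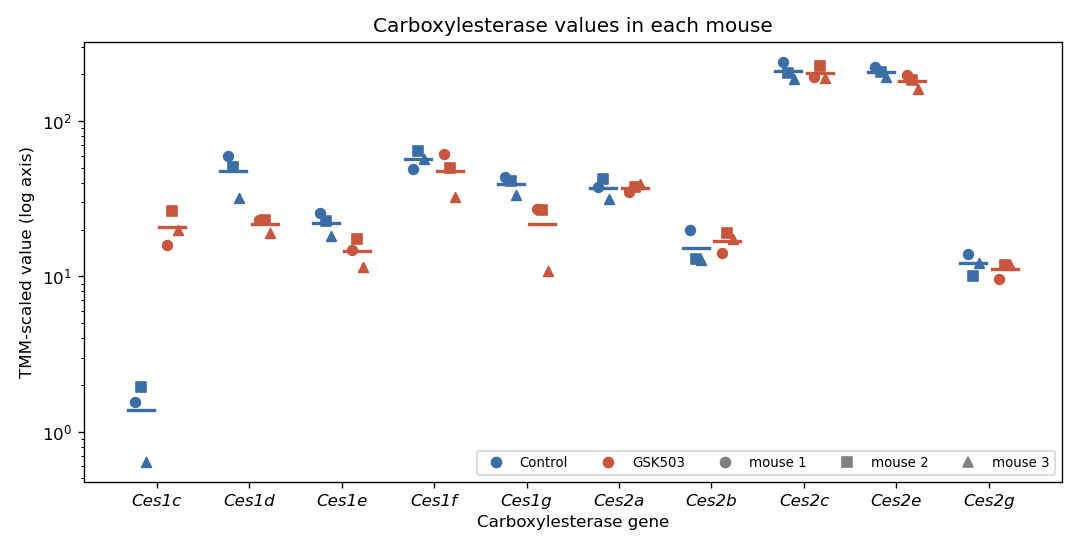
TMM-scaled value of each of the 10 carboxylesterases (log axis) in 3 control mice (blue) and 3 GSK503-treated mice (red), with the symbol marking the mouse and the horizontal bar the group mean. *Ces1c* lies at 0.637 to 1.95 in the controls and 16.0 to 26.4 after GSK503, *Ces1d*, *Ces1e* and *Ces1g* are lower in every treated mouse, and the 5 *Ces2* genes overlap.

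The 5 *Ces2* genes overlapped between the groups, and none passed the test. *Ces2c*, a triacylglycerol and diacylglycerol hydrolase of enterocytes, was 239, 205 and 187 in controls and 193, 227 and 190 in treated mice. The log2FC of *Ces2c* was -0.05 with a 95% confidence interval from -0.29 to 0.19 (limma adjusted p = 0.898). *Ces2e*, an intestinal member of the group, was 223, 206 and 193 in controls and 199, 184 and 161 in treated mice. Only the highest treated mouse was within the control range, and the log2FC was -0.20 with an interval from -0.41 to 0.02 (limma adjusted p = 0.421).

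*Ces2a*, an acylglycerol hydrolase of liver and intestine, was 37.6, 42.4 and 31.7 in controls and 35.2, 37.6 and 39.2 in treated mice. The 3 treated mice lay within the range of the controls, and the log2FC of 0.01 had an interval from -0.24 to 0.26 (limma adjusted p = 0.977). *Ces2b* was 19.9, 12.9 and 12.8 in controls and 14.1, 19.1 and 17.5 in treated mice. Control mouse 1 stood above the other 2 controls and above every treated mouse, and the log2FC was 0.17 with an interval from -0.25 to 0.59 (limma adjusted p = 0.746). *Ces2g* was 14, 10.1 and 12.3 in controls and 9.63, 11.9 and 11.9 in treated mice. Its log2FC was -0.12, with an interval from -0.46 to 0.23 (limma adjusted p = 0.802). The 5 intervals together reached from -0.46 for *Ces2g* to 0.59 for *Ces2b*, so larger differences of these genes lie outside them.

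Reads of close relatives can be shared between genes, and RSEM then divides them. Of the 76-base windows of *Ces2c* exons, 49.2% also occur in exons of another annotated gene, chiefly the predicted gene *Gm64957* with 47.8%. The reads were paired-end, so a mate outside a shared window can place a read, and this share can exceed that of ambiguous reads. The paper names no gene annotation for RSEM, so whether reads were divided with *Gm64957* is not known, and the level of *Ces2c* is uncertain. For *Ces2a* the share was 7.34%, chiefly with *Gm63300*, and for *Ces2b*, *Ces2e* and *Ces2g* it was between 0.292% and 1.32%. For *Ces1c* it was 3.68%, of which 2.67% was with *Ces1b*, and *Ces1b* itself had 11 to 31 estimated counts in every library. For *Ces1e* it was 0.609%, and no window of *Ces1d*, *Ces1f* or *Ces1g* was shared.

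Levels can be compared between genes once divided by exon length. In the control mice *Ces2c*, with 88.6 ± 11.1 per kb of exon (SD, n = 3), and *Ces2e*, with 75.6 ± 5.52 per kb, stood above all others, and their ranges overlapped. Next came *Ces1g* with 14.3 ± 1.94 per kb, *Ces1f* with 13.4 ± 1.76 per kb and *Ces2a* with 12.5 ± 1.80 per kb, which did not differ beyond their spread. *Ces1d* with 9.23 ± 2.73 per kb and *Ces1e* with 7.05 ± 1.2 per kb overlapped each other, as did *Ces2b* with 4.46 ± 1.19 per kb and *Ces2g* with 3.29 ± 0.532 per kb. *Ces1c* was the lowest of the 10 in every control mouse, with 0.526 ± 0.257 per kb.

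After GSK503 *Ces1c* stood at 7.91 ± 1.99 per kb, the fifth of 10, within the range of *Ces1g* at 7.80 ± 3.36 per kb. *Ces1d* moved from the sixth place to the ninth, with 4.23 ± 0.460 per kb, and overlapped *Ces2b* and *Ces1e*. *Ces2c* and *Ces2e* kept the 2 highest levels, at 85.6 ± 8.75 and 66.1 ± 7.08 per kb. With the longest transcript in place of all exons, the middle of the control order became *Ces1f*, *Ces2a* and *Ces1g*, and *Ces1c* stayed last. After GSK503, *Ces1d* was then the eighth and *Ces2b* the ninth.

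**Figure D2:**
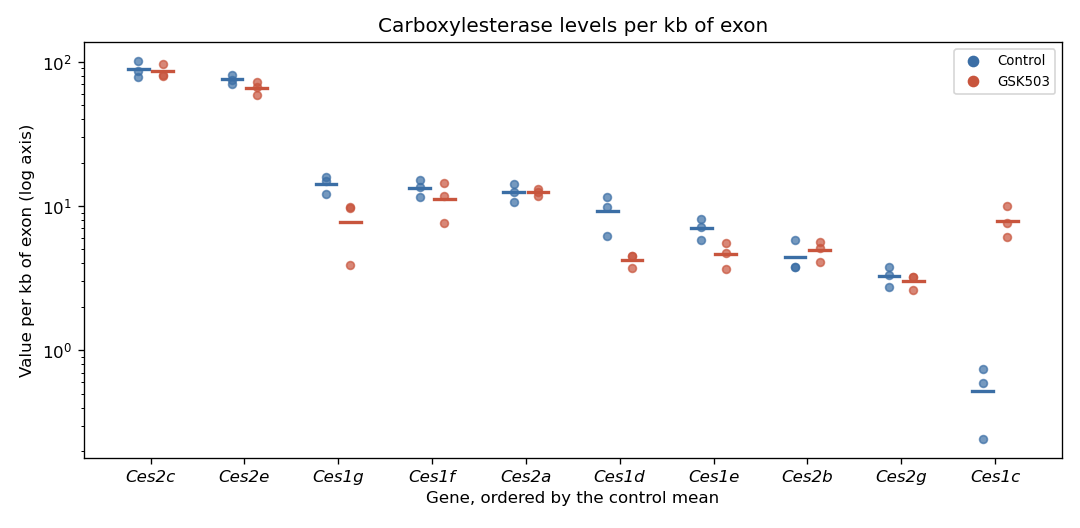
Value per kb of exon (log axis) of the 10 carboxylesterases, ordered by the control mean, with a point for each mouse (control blue, GSK503 red) and a bar for each group mean. *Ces2c* and *Ces2e* lead in both groups, and *Ces1c* moves from the lowest control mean, 0.526 per kb, to 7.91 per kb.

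The make-up of the *Ces1* group differed between the mice. *Ces1c* was 1.24%, 1.56% and 0.641% of the summed *Ces1* value per kb in controls and 15.4%, 24.2% and 28.7% in treated mice. *Ces1g* went the other way, at 33.1%, 31.1% and 32.0% in controls and 24.8%, 23.3% and 14.8% in treated mice, and *Ces1d* was 20.5 ± 3.88% against 12.1 ± 1.69% (SD, n = 3). The share of *Ces1f* was 30.5 ± 5.74% and 31.2 ± 4.62%. Within the *Ces2* group, *Ces2c* made up 48.0 ± 1.14% in controls and 49.7 ± 2.43% in treated mice, and *Ces2e* 41.1 ± 1.17% and 38.4 ± 3.24%. Shares of one sum are bound to each other, so a higher share of *Ces1c* lowers the others.

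The summed value of the 5 *Ces1* genes was 180, 181 and 142 in controls and 143, 143 and 93.6 in treated mice, with means of 168 ± 22.4 and 127 ± 28.6 (SD, n = 3). Control mouse 3 lay below the 2 highest treated mice, so these sums overlapped. Without *Ces1c* the sums did not overlap, at 141 to 179 in controls and 73.6 to 127 in treated mice. The summed *Ces2* value was 482 ± 48.6 in controls and 450 ± 30.4 in treated mice, with overlap.

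**Figure D3:**
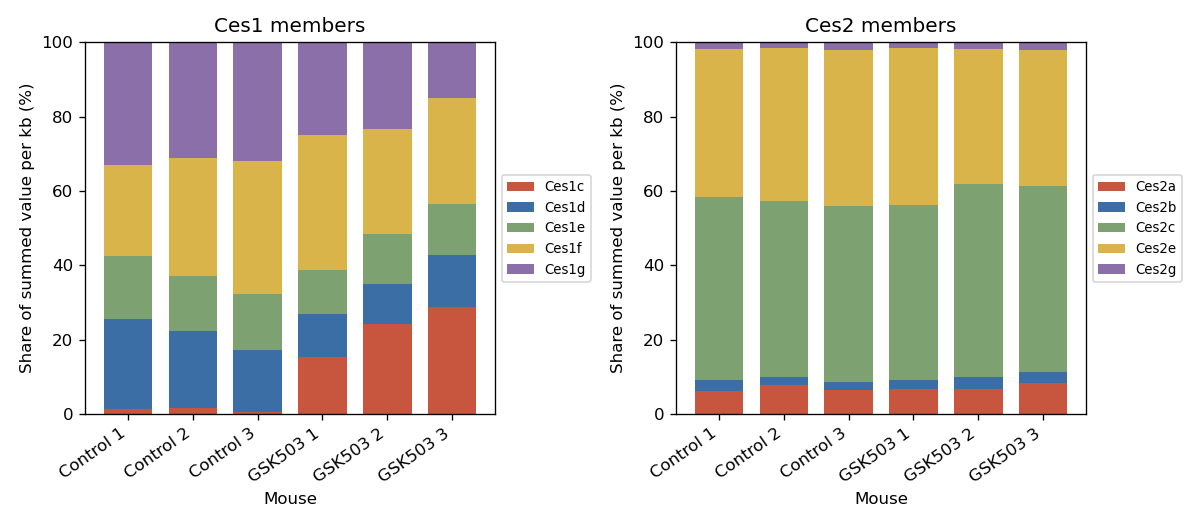
Share of each gene in the summed value per kb of exon (percent) of the 5 *Ces1* genes (left) and the 5 *Ces2* genes (right), with a stacked bar for each of the 3 control and 3 GSK503-treated mice. *Ces1c* takes 0.641% to 1.56% of the *Ces1* sum in the controls and 15.4% to 28.7% after GSK503, while *Ces2c* takes 47.1% to 51.9% of the *Ces2* sum over all 6 mice.

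Along the chromosome, neither neighbor of *Ces1c* passed the test. *Ces1b*, on one side, was 0.129, 0.0995 and 0.197 in controls and 0.178, 0.135 and 0.258 in treated mice, with a log2FC of 0.26 (95% confidence interval -0.72 to 1.25, limma adjusted p = 0.849). *Ces1d*, on the other side, was lower in every treated mouse, as given above. The 12 nearest tested protein-coding genes outside both clusters, 3 on each side of each, had log2FC values between -1.43 and 0.53, and none passed the test, with a lowest adjusted p of 0.307. *Lpcat2*, a lysophospholipid acyltransferase, was at a log2FC of 0.23.

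**Figure D4:**
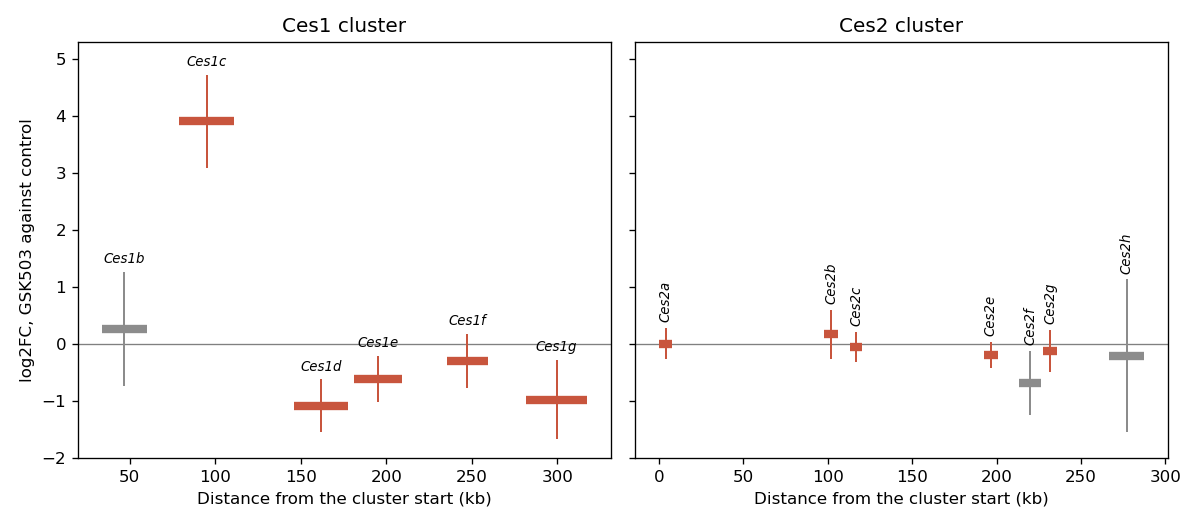
log2FC of GSK503-treated against control mice for the carboxylesterases of the *Ces1* cluster (left) and the *Ces2* cluster (right), by distance from the cluster start in kb. Horizontal bars span each gene, vertical lines are 95% confidence intervals, red marks the 10 genes described and gray the other tested carboxylesterases, and *Ces1c* at 3.91 is the 1 gene with an interval above 0.

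Of 10 other carboxylesterase genes looked for by name, 4 were in the table and 3 were tested. *Ces2f* was 4.92, 2.97 and 4.99 in controls and 2.63, 2.63 and 2.45 in treated mice. The groups did not overlap, and its log2FC was -0.68 with an SE of 0.24 (limma adjusted p = 0.263). *Ces2h* lay at or below 0.260 and *Ces3a* at or below 0.190 in every mouse, both with 33 estimated counts or fewer in each library.

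Other enzymes that act on the same kinds of substrate were compared through gene lists. Of 24 tested ester and lipid hydrolases outside the family, 1 fell, against 0.144% of all genes, and none rose, and the median log2FC was -0.04. The gene that fell was *Lpl*, lipoprotein lipase, which hydrolyzes triacylglycerols of circulating lipoproteins. Its value was 17.8, 14.6 and 16.9 in controls and 8.41, 8.99 and 5.63 in treated mice, with no overlap, and its log2FC was -1.11 (limma adjusted p = 0.0325). The call was lost without any 1 of 5 of the 6 mice (adjusted p from 0.0609 to 0.110), without the filter (0.0507), without the intensity trend (0.214) and with the replicate block (0.104). *Bche*, which encodes butyrylcholinesterase, was also lower in every treated mouse, with a log2FC of -0.72 and an adjusted p of 0.112.

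Of 12 conjugating enzymes tested, which attach glucuronic acid or sulfate to drugs and to products of ester cleavage, none passed the test, and the median log2FC was -0.14. The smallest adjusted p was 0.0598 for *Sult2b1*, a cholesterol sulfotransferase, with a log2FC of 0.81, while *Ugt2b5* and *Ugt1a1*, both UDP-glucuronosyltransferases, had log2FC values of -0.45 and -0.38 with adjusted p values of 0.283 and 0.360. The *Ugt1a* genes share their last exons, so reads cannot always be assigned to 1 of them. Of 7 efflux transporters none passed the test. Among these, *Abcc4* had a log2FC of -0.26 (adjusted p = 0.287) and *Abcc2* of -0.77 (adjusted p = 0.452).

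Of 19 nuclear receptors and intestinal transcription factors, none passed an adjusted p below 0.05. *Nr1i3*, which encodes the constitutive androstane receptor, a drug sensor known to induce carboxylesterases in liver, was 0.690, 0.990 and 0.677 in controls and 2.14, 2.38 and 2.65 in treated mice. The groups did not overlap, and the log2FC of 1.5 had an adjusted p of 0.0505. *Nr3c1*, the glucocorticoid receptor gene, had a log2FC of -0.33 with an adjusted p of 0.0871, and *Nr1h4*, the bile acid receptor gene, -0.27 with an adjusted p of 0.131, each lower in every treated mouse. *Hnf4g*, a nuclear receptor of differentiated enterocytes, had a log2FC of -0.30 and an adjusted p of 0.264. Of 12 tested genes of triglyceride handling none passed, and *Agpat2*, an acyltransferase of glycerolipid synthesis, had the smallest adjusted p, 0.148, with a log2FC of 0.41.

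Markers of cell types and of gut position were compared beside these values, and their part in them was not tested. Summed surface colonocyte markers lay between 3699 and 3813 in controls and between 2755 and 6193 in treated mice. Much of the treated spread was *Car1*, at 4019, 2069 and 954, with a log2FC of -0.04. The other 7 of these 8 genes had a log2FC above 0, and none of the 8 passed the test. Stem and cycling cell markers summed to between 1015 and 1156 in controls and between 796 and 934 in treated mice, a sum made up mostly of the cycling genes *Mki67* and *Top2a*. None of these 5 genes passed the test, and 2 of them, the stem cell genes *Lgr5* and *Ascl2*, had a log2FC above 0. Small intestinal enterocyte markers summed to between 31.5 and 54.6 in controls and between 28.6 and 40.3 in treated mice. Adipocyte markers, of which 6 of 8 were in the table, summed to between 3.77 and 5.35 in controls and between 4.58 and 7.38 in treated mice. The highest adipocyte sum, in treated mouse 1, was mostly *Cidec* at 6.29. Of the 4 adipocyte markers tested, *Cidec* had a log2FC of 0.59 and the other 3 had a log2FC below 0. The 6 posterior *Hox* genes, which mark the distal gut, summed to between 150 and 175 in controls and between 176 and 203 in treated mice. Most of this sum was *Hoxb13*, whose groups overlapped. All 6 genes had a log2FC above 0, and none passed the test.

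The genes whose log2 values followed each leading member most closely over the 6 mice were taken as the 3 with the highest Pearson's r of all genes tested. For *Ces1c* these were *Rnf149* with r = 0.998, *Smim14* with r = 0.996 and *4933434E20Rik* with r = 0.995, and since the 6 mice fall into 2 separate groups of *Ces1c* values, such an r mostly reflects the difference between groups. None of the 3 passed the test, and their log2FC values were 0.20, 0.35 and 0.22. For *Ces1f* they were *Gm7854* with r = 0.999, *Zxdb* with r = 0.997 and *Csk* with r = 0.984, and for *Ces2c* *Dnmbp* with r = 0.994, *Haghl* with r = 0.989 and *Tpd52l2* with r = 0.981. With 6 points and 16670 genes to choose from, these values are descriptions only.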

How the data were processed

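Colonic crypts of 6 mice (3 control, 3 given GSK503) were profiled by total RNA-Seq, with groups and replicate numbers from the sample labels. The authors aligned paired-end reads of 76 bases to GRCm39 with STAR, obtained RSEM estimates of each gene's count and applied TMM scaling. The deposited signal is thus an estimated count relative to the scaled library size and not a raw count. Values of a library were whole multiples of 1 step for 75.2% to 78.0% of genes (within a tolerance of 0.01), and the step gave the estimated counts and totals. Intervals for counting error were not used, and 3 counts were taken as the floor.

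The study used a count model. Because the table holds scaled values, limma (version 3.58.1, R 4.3.3) was used with lmFit and eBayes with an intensity trend on log2(value + 0.1), without covariates, for genes of at least 0.1 in at least 3 mice, and p-values were adjusted by Benjamini-Hochberg over all 16670 genes tested. A sum over genes received no p. The p-values set the difference between groups against the spread between these mice, which limma moderates toward an intensity trend over all genes tested. No 2 libraries were identical, and Pearson's r between libraries across genes lay between 0.977 and 0.990.

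The genes, lists and tests were chosen with earlier results of these data known, so no pattern here is independent support. All 10 members are named, with the other carboxylesterases, at most 4 genes of each list by smallest limma p, the 3 tested genes with the highest r to *Ces1c*, *Ces1f* and *Ces2c* (the member with the smallest p, and in the *Ces1* and the *Ces2* group the member with the highest mean level per kb over all 6 mice), and the 3 nearest tested genes on each side of both clusters, of which 1 is named. One allele shared by both groups and some genes are not reported here.

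The GENCODE annotation of GRCm39 held 95.4% of the symbols by name and gave positions, exon lengths, 76-base windows and upstream windows. The fit was tested on simulated data. Other data of the study were not analysed here. Alternatives were other scalings, pseudocounts, filters, variance models, limma-voom, a replicate block, leaving out X and Y genes, leaving out each mouse and, for levels, the longest transcript.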

Additional observations from a re-analysis of the deposited data

How the results depend on the processing

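The number of genes called over the whole table, 107 at an adjusted p below 0.05, depended on the processing. It was 261 with library size alone, 70 without a filter on low values and 16 without an intensity trend, and between 29 and 216 when 1 mouse was left out, with the highest count without GSK503-treated mouse 3 and the lowest without GSK503-treated mouse 2. It was 44 without control mouse 2, 49 without control mouse 3 and 63 without GSK503-treated mouse 1. Library size alone moved the median log2FC of all genes to -0.12 and gave 83 calls with higher and 178 with lower values in place of 83 and 24 (a share of higher calls of 31.8% in place of 77.6%), while no other setting moved the median by more than 0.01. Without GSK503-treated mouse 3 there were 116 calls with higher and 100 with lower values, and without an intensity trend 9 and 7. The causes were not tested.

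Of the carboxylesterases, 1 was called as reported, 2 with library size alone, 2 with median-of-ratios scaling, 0 without an intensity trend, and 1 to 2 when 1 mouse was left out. *Ces1c* was called in 15 of 16 alternatives, with adjusted p values from 0.000617 to 0.0860, the highest without the trend, and it was filtered out where every mouse had to reach 1. *Ces1d* was called in 5 of 17 alternatives, with adjusted p values from 0.00485 to 0.256, among them library size alone (0.0280), median-of-ratios scaling (0.0488) and the filter of 1 in every mouse (0.0475). *Lpl* lost its call without a filter (0.0507), without the trend (0.214) and without any mouse but GSK503-treated mouse 3 (0.0609 to 0.110). *Nr1i3* passed 0.05 in 4 alternatives (0.0303 to 0.0492), and *Nr3c1* and *Nr1h4* passed it with library size alone (0.0302 and 0.0303).

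The sign changed only for differences near 0 or at very low values. For *Ces2a* the log2FC was -0.10 with library size alone and between -0.10 and 0.11 without single mice, for *Ces2c* between -0.13 and 0.05 (0.048 without control mouse 1), and for *Ces2h* 0.12 with a pseudocount of 0.01, 0.28 with limma-voom and between -0.69 and 0.03 without single mice (0.025 without GSK503-treated mouse 1). Of 434 log2FC values of named genes under alternatives, 405 kept their direction and side of the threshold, 13 came to pass it, 9 ceased to pass it and 7 changed sign.

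Mice with the same replicate number did not deviate together (r = 0.03, -0.13 and -0.12 across genes), so the numbers were not taken to pair the mice. With the replicate block 33 genes were called, 2 of them carboxylesterases, *Ces1c* and *Ces1d* (adjusted p = 0.0428 in limma), and *Lpl* was not (0.104). Depth limits *Ces1b*, *Ces2h* and *Ces3a*, with 33 estimated counts or fewer in each library.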
